A study of Mus musculus with 6 samples.

Results

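Fibrous collagens, elastic fibre proteins and the enzymes that modify and crosslink them were followed across 6 messenger RNA libraries of mouse podocytes, which wrap the capillaries of the kidney's filter. The set was defined by gene symbols. It took every collagen chain except those of types IV, XVII and XVIII. It also took the lysyl oxidases, fibrillins, fibulins, EFEMP proteins, latent TGF-beta binding proteins, emilins and Mfap-named genes. Added to these were prolyl hydroxylase subunits with P4ha symbols, lysyl hydroxylases, procollagen C-proteinase enhancers and 13 further genes by full symbol. Of the 12803 genes in the deposited table, 57 met these terms, and Eln, one of the 13, is not analysed here. The KO libraries, 3 in number, came from a cell line derived from podocytes whose genotype the labels give as Myosin 1e KO. The WT libraries, also 3, came from a murine podocyte line (Mundel) of WT genotype. The labels used here state no strain, culture conditions or way in which the KO line was made, and the heterozygous genotype of the design text is not analysed here. With 1 line per genotype, the effect of the genotype and other differences between the lines cannot be told apart. The labels speak of biological replicates without naming separate cultures, so p-values measure the spread between these libraries, which may be technical.

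A fibrillar collagen is assembled in the endoplasmic reticulum from chains that prolyl and lysyl hydroxylases modify and that the chaperone HSP47 holds in helical form. Outside the cell its propeptides are cut off and lysyl oxidases join neighbouring molecules into stable fibres. Elastic fibres form when elastin is laid onto microfibrils of fibrillin with the help of fibulins and latent TGF-beta binding proteins. In the glomerulus, fibrous matrix lies mainly in the mesangium and builds up in scarring, while podocytes contribute above all to the basement membrane.

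The libraries held 35447096 to 42106461 reads in the listed genes, at which 3 reads equal 0.0703 to 0.0856 CPM (reads scaled to a common library size). Myo1e, the motor named in the genotype, stood at 18.9, 16.3 and 16.8 CPM in the KO libraries, against 184, 180.2 and 168 CPM in the WT libraries (log2 fold change -3.35, SE 0.09, adjusted p = 2.1e-08 by limma, as explained below; exact two-sided permutation p = 0.1, the smallest that 3 against 3 allows). Of 14 podocyte markers 9 were listed, 2 higher, 6 lower and 1 not past the test described below, with a summed level of 259 to 417 CPM in the KO libraries and 916 to 1089 CPM in the WT libraries, mostly from Synpo. The podocyte marker Wt1, which came over the filter on low values (above 0 log2 CPM in at least 3 of 6 libraries) in WT alone, was at 0.125 ± 0.10 CPM over the KO libraries, against 4.4 ± 2.0 CPM over the WT libraries (SD, n = 3). Going the other way, Podxl was at 106 ± 8.4 CPM over the KO libraries, against 50.4 ± 4.7 CPM over the WT libraries, and so did Clic5, at 3.11 ± 0.49 CPM over the KO libraries, against 1.11 ± 0.34 CPM over the WT libraries. All 12 markers of simple epithelium passed as higher in the KO line, where 34.3% of all genes tested did, but 11 of the 12 came over the filter in KO alone and so had to differ. Their sum was 7145 to 7612 CPM in the KO libraries and 5.90 to 7.40 CPM in the WT libraries. Cldn3, Cldn7 and Esrp1 had 0 reads in the WT line. Of 14 fibroblast and pericyte markers 6 were listed, 2 higher and 3 lower in the KO line, with sums of 446 to 866 CPM in the KO libraries and 1490 to 1579 CPM in the WT libraries, mostly from Acta2. Among them Pdgfrb was lower, at 0.192 ± 0.071 CPM over the KO libraries, against 114 ± 24 CPM over the WT libraries. Notch3 was higher, at 89.5 ± 19 CPM over the KO libraries, against 34.2 ± 1.4 CPM over the WT libraries, as was Rgs5, at 2.39 ± 0.95 CPM over the KO libraries, against 0.0907 ± 0.094 CPM over the WT libraries. Pdgfrb came over the filter in WT alone and Rgs5 in KO alone. Of 12 endothelial and 12 leukocyte markers 3 each were listed, and none of the leukocyte markers passed in the fit used here, whose sum, mostly from Cd74, was 320 to 424 CPM in the KO libraries and 260 to 327 CPM in the WT libraries. Csf1r passed in 7 of the alternatives (adjusted p = 0.0138 to 0.0499) and Cd74 in 2 (adjusted p = 0.0258 and 0.0411), both higher in KO. Among the endothelial markers Flt1 was lower and Egfl7 higher, the second not past the test without KO replicate 2 or 3 or WT replicate 2, with sums of 6.69 to 7.85 CPM in the KO libraries and 9.23 to 18.5 CPM in the WT libraries. The part of these marker differences in the results below was not tested. In such bulk samples fewer cells of a type and less RNA per cell cannot be told apart.

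Most of the matrix genes tested were lower in the KO line, but Fn1, Thbs1 and Tnc, the 3 with the most reads in that line, were higher by CPM. Differences were tested with limma on the deposited log2 CPM, KO minus WT, and to pass a gene needed an adjusted p under 0.05 (Benjamini-Hochberg, over all 12616 genes tested). Of the 57 matrix genes 56 were tested, and 48 of these passed (85.7%), where 68.1% of all genes tested did. Of the 48, 16 rose and 32 fell. That is 28.6% higher and 57.1% lower, where 34.3% of all genes tested were higher and 33.8% lower. Their median log2 fold change was -0.77, where that of all genes tested was 0.01. At least 2-fold changes were seen in 11 higher and 27 lower matrix genes, or 67.9% of those tested, against 27.9% of all genes (11.7% higher and 16.2% lower). At least 16-fold lower were 16 matrix genes (28.6%), against 3.75% of all genes, and at least 16-fold higher were 2, where 3.53% of all genes were. The libraries of the lines did not overlap in 48 matrix genes (85.7%), against 73.5% of all genes. These shares are descriptions, since 15 of the 56 came over the filter on low values in only 1 line, 12 in WT and 3 in KO, and had to differ. In WT these were Col6a2, Col8a2, Col23a1, Loxl2, Loxl3, Fbln1, Efemp2, Emilin2, Svep1, Mgp, Tgfbi and Bgn, and in KO Col11a1, Efemp1 and Ltbp2. The adjusted p-values given below for these 15 are descriptions too. Without the 4 Mfap-named genes, of which Mfap1a and Mfap1b do not encode matrix proteins, 46 of 52 passed (88.5%), 14 higher and 32 lower. Among the 41 genes of the whole set above the filter in at least 1 library of both lines, 33 passed (80.5%, where 64.8% of all such genes did). Of those 41, 13 rose (31.7%, against 33.0% of all such genes) and 20 fell (48.8%, against 31.8%). At least 2-fold changes were seen in 23 of the 41 (56.1%, against 20.6% of all such genes). At least 16-fold lower were 7 (17.1%, against 1.18%), and at least 16-fold higher were 0, where 64 of all 11441 such genes were.

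**Figure D1:**
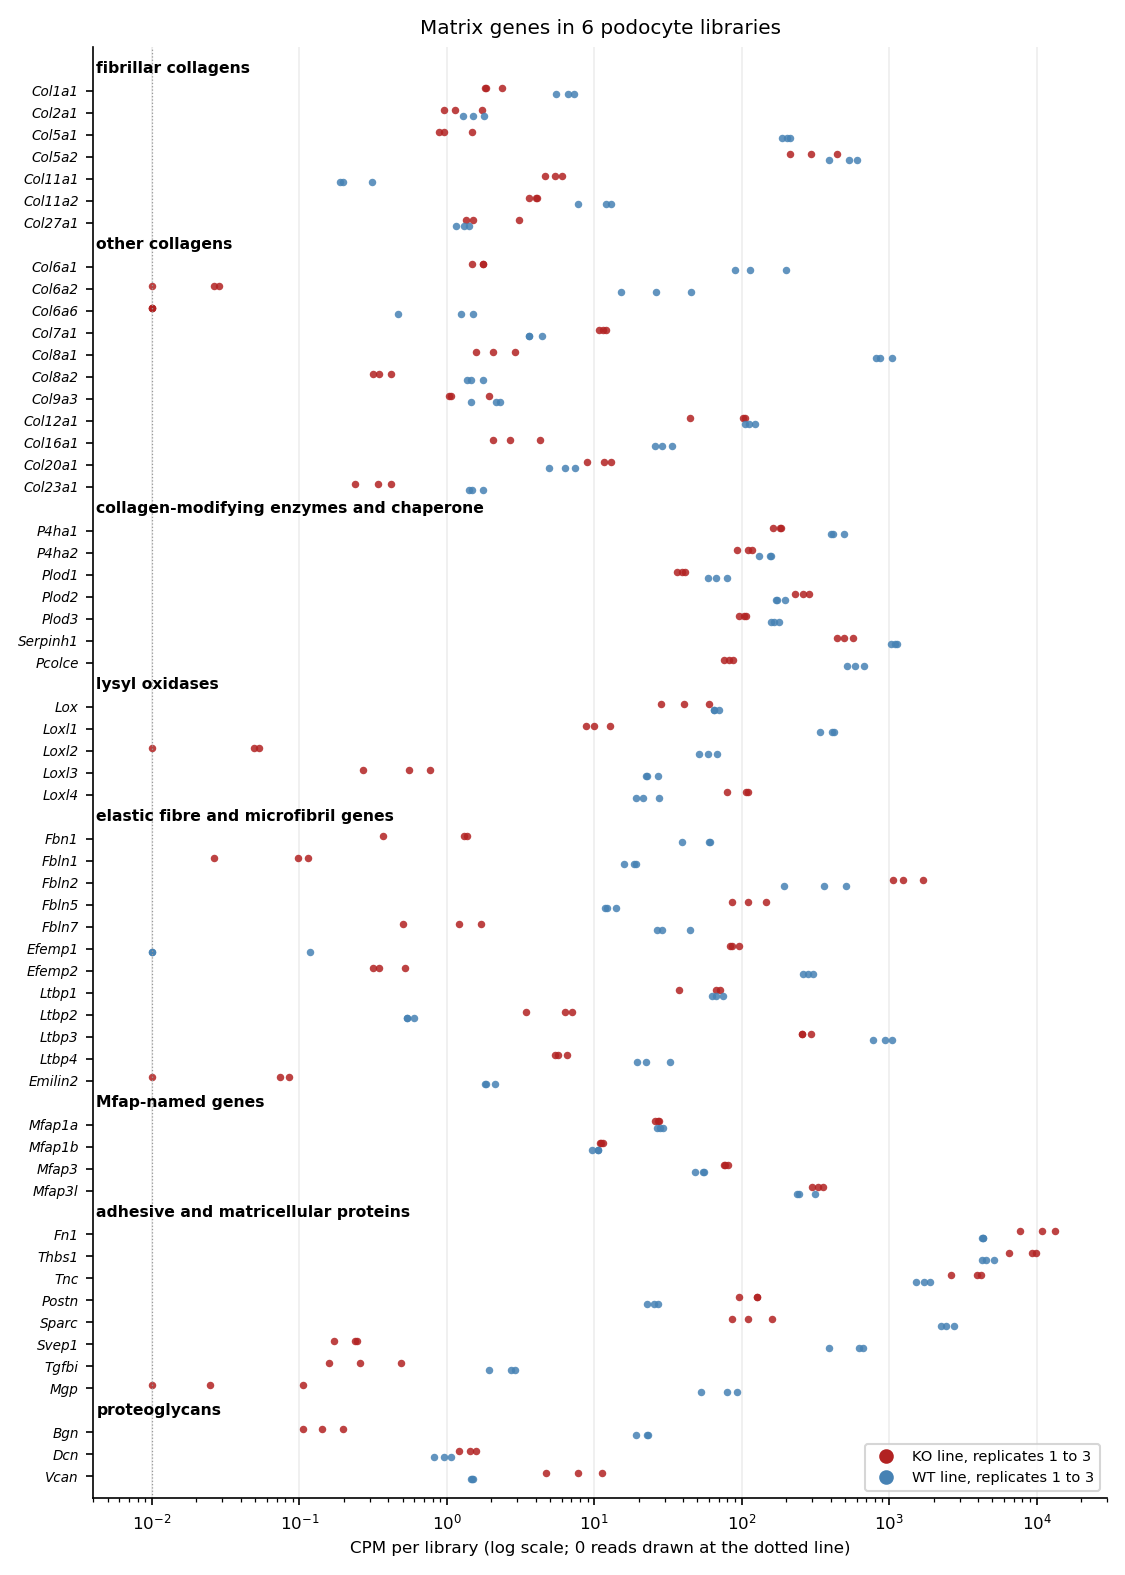
Level of each of the 57 matrix genes in each library, in CPM on a log axis, with the KO libraries in red and the WT libraries in blue, grouped by role. Fn1 and Thbs1 stand furthest right and have more CPM in KO, while Svep1, Mgp, Loxl2, Efemp2 and Col6a2 are below 1 CPM in every KO library and above 10 CPM in every WT library.

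The 57 genes together took 3.13%, 2.87% and 2.10% of the reads of the KO libraries and 2.16%, 2.11% and 2.09% of those of the WT libraries. Fibronectin, thrombospondin 1 and tenascin C alone made up 81.6% to 85.1% of this in the KO libraries and 48.1% to 52.0% in the WT libraries. Without these 3 genes the sum was 5154, 4320 and 3802 CPM in the KO libraries, against 11069, 10229 and 10154 CPM in the WT libraries. The sum of the other 54 was thus lower in each KO library than in any WT library, while the sum of all 57 overlapped between the lines. The collagen chains summed to 598, 438 and 305 CPM in the KO libraries and to 2004, 1746 and 2136 CPM in the WT libraries. Most of this came from Col5a2 in the KO libraries and from Col8a1 and Col5a2 together in the WT libraries.

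**Figure D2:**
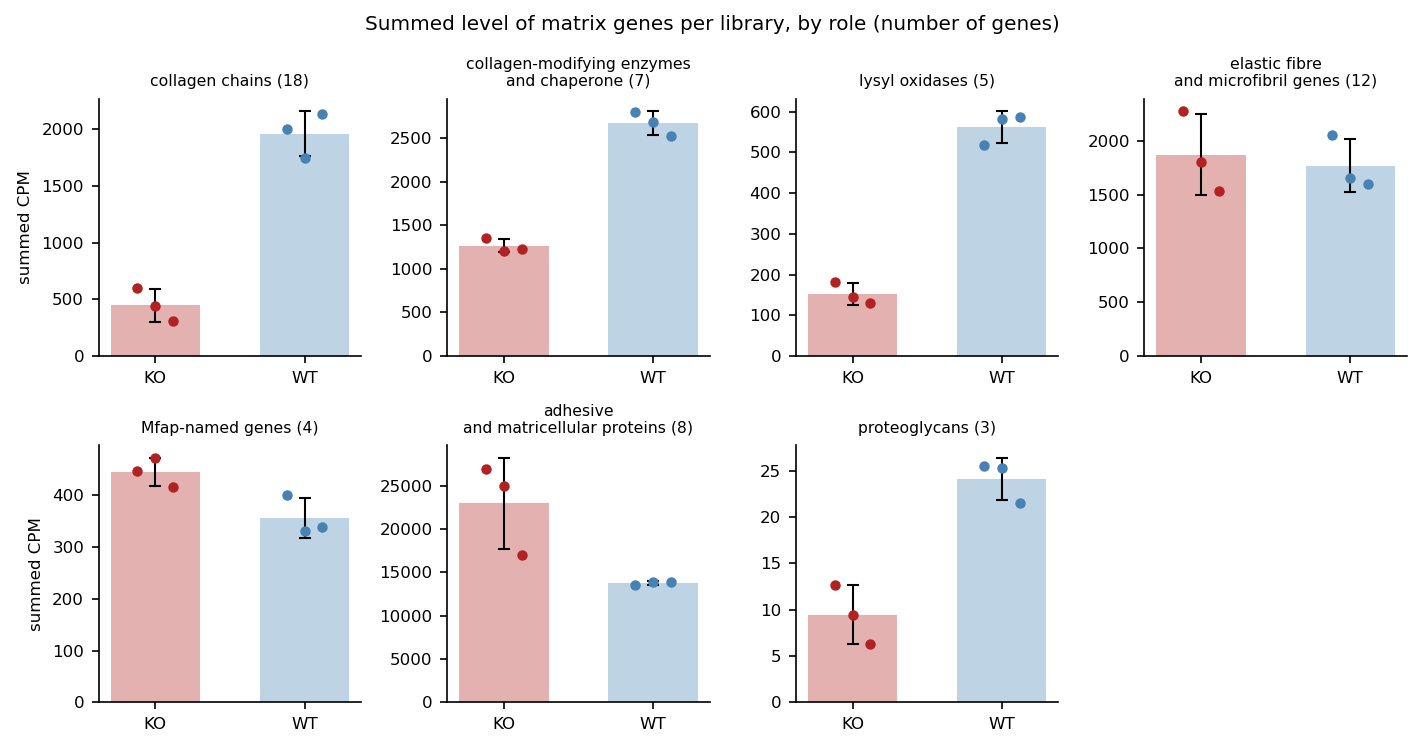
Summed CPM of the matrix genes of each role per library (points), with the mean (bar) and SD (n = 3). Collagen chains, modifying enzymes, lysyl oxidases and proteoglycans are lower in all KO libraries, adhesive and matricellular proteins and Mfap-named genes are higher in all of them, and the sums of elastic fibre genes overlap.

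Of the 7 fibrillar collagen genes tested, 1 rose and 4 fell (71.4% passed, near the 68.1% of all genes tested). Fibrillar chains were at low levels in the KO line apart from Col5a2. Col5a1, which encodes a chain that nucleates collagen I fibrils and sets their diameter, was at 1.48, 0.885 and 0.955 CPM in the KO libraries, against 188, 211 and 204 CPM in the WT libraries (log2 fold change -7.51, SE 0.19, adjusted p = 1.7e-08). No KO library reached 1% of any WT library. Its partner chain Col5a2 was at 441, 294 and 214 CPM in the KO libraries, against 535, 392 and 602 CPM in the WT libraries, so that the highest KO library lay above the lowest WT library. It passed (log2 fold change -0.73, SE 0.26, adjusted p = 0.0326), but not without KO replicate 2 or 3, without WT replicate 1 or 3, or without the intensity trend (adjusted p = 0.0617 to 0.11 there, with 0.00527 to 0.11 over 14 alternatives). Per kilobase of merged exon, Col5a1 was at 0.13 CPM and Col5a2 at 33 CPM in the KO line, and Col5a1 at 23.6 CPM and Col5a2 at 53.1 CPM in the WT line.

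Collagen XI chains went apart. Col11a1 was at 5.41, 4.59 and 6.0 CPM in the KO libraries, against 0.187, 0.31 and 0.198 CPM in the WT libraries (log2 fold change 4.40, SE 0.26, adjusted p = 1.5e-06), the largest rise among the collagen genes tested. It came over the filter through the KO line alone. Col11a2, which encodes another chain of the same molecule in cartilage, was at 4.01, 3.6 and 4.11 CPM in the KO libraries, against 7.78, 12 and 12.9 CPM in the WT libraries and fell (log2 fold change -1.44, SE 0.20, adjusted p = 0.0003). The chain of the main collagen of bone and skin, Col1a1, was low in both lines, at 2.36, 1.83 and 1.83 CPM in the KO libraries, against 7.33, 6.6 and 5.48 CPM in the WT libraries, with all KO libraries below all WT libraries (log2 fold change -1.68, SE 0.19, adjusted p = 7.5e-05). The cartilage collagen gene Col2a1 was at 1.72, 1.14 and 0.955 CPM in the KO libraries, against 1.5, 1.29 and 1.78 CPM in the WT libraries and did not pass (log2 fold change -0.29, 95% interval -0.91 to 0.34, adjusted p = 0.374). Col27a1, of a collagen found in developing cartilage, was at 3.08, 1.51 and 1.35 CPM in the KO libraries, against 1.31, 1.42 and 1.16 CPM in the WT libraries and did not pass either (log2 fold change 0.51, 95% interval -0.23 to 1.24, adjusted p = 0.19). For Col2a1 and Col27a1 the libraries of the lines overlapped. Col1a2 and Col3a1 are not analysed here.

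Among the 11 other collagen genes, 2 rose, 6 fell, 2 did not pass and 1 was not tested (80% of those tested passed, against 68.1% of all genes tested). Col6a2, Col8a2 and Col23a1 came over the filter in WT alone and had to differ. The chains that fell furthest form networks and beaded filaments. Col8a1, a short-chain collagen of the endothelial and subendothelial matrix, was at 2.04, 2.88 and 1.57 CPM in the KO libraries, against 867, 814 and 1048 CPM in the WT libraries (log2 fold change -8.73, SE 0.20, adjusted p = 1.2e-08), so the KO line held 0.238% of the WT level. Per kilobase it had more reads than any other collagen gene of the set in the WT line, with 0.276 CPM per kilobase in the KO line and 116 in the WT line. The related Col8a2 was at 0.418, 0.314 and 0.345 CPM in the KO libraries, against 1.36, 1.45 and 1.75 CPM in the WT libraries and also fell, by less on the fitted scale (log2 fold change -2.01, SE 0.25, adjusted p = 0.00015). Both tested chains of collagen VI, which forms beaded filaments, fell. Col6a1 was at 1.75, 1.77 and 1.49 CPM in the KO libraries, against 198, 114 and 89.4 CPM in the WT libraries (log2 fold change -6.23, SE 0.26, adjusted p = 2.1e-07), and its WT libraries varied widely while all KO libraries stayed under 2 CPM. Col6a2 was at 0, 0.0285 and 0.0265 CPM in the KO libraries, against 45.5, 26.3 and 15.1 CPM in the WT libraries, with 2 reads over the KO libraries and 3492 over the WT libraries (limma adjusted p = 5e-07). The ratio of WT to KO was 1696 with an exact 95% interval (Clopper-Pearson) of 469 to 14009, which covers counting error only. Col6a6 had 0 reads in the KO group, was at 0.468, 1.24 and 1.5 CPM in the WT libraries and was not tested. Against 3 reads over the KO group it was at least 39-fold lower there. In the WT line the order of the libraries was the same for Col6a1 and Col6a2, with replicate 1 highest, and the reverse for Col6a6.

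Col6a1 and Col6a2 are neighbours within the set on chromosome 10 (GRCm38), both on the minus strand, with Col6a2 at 76595762 to 76623630 and Col6a1 at 76708792 to 76726168, 85.2 kb apart. To show the DNA before a collagen gene that fell furthest, the bases in front of the RefSeq start sites of Col8a1 (chr16:57754738-57754987) and Col6a2 (chr10:76623631-76623880), both on the minus strand of build GRCm38.p6, read as follows from 5′ to 3′. Capitals mark matches on either strand to 6 short motifs: CAGGTG (the E-box that Zeb and Snail factors bind), TGANTCA (AP-1), GGAATG (TEAD), CCAAT (NF-Y), TATAAA (the TATA box) and GGGCGG (Sp1).
Col8a1: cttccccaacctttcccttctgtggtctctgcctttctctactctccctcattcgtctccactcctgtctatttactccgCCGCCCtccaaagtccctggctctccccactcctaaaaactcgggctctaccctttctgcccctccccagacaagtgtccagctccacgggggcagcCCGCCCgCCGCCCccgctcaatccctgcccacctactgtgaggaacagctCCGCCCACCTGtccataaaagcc
Col6a2: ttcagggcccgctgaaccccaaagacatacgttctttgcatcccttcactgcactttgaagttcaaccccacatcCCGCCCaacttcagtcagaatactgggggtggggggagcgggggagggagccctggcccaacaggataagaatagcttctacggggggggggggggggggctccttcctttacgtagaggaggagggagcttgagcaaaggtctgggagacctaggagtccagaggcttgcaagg
The Col8a1 window held 1 match to CAGGTG, which shares 1 base with 1 of its 4 matches to GGGCGG, and the Col6a2 window held 1 match to GGGCGG. Such matches are letters in a window and not measured binding.

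The FACIT collagens, which sit on the surface of fibrils, differed among themselves. Col16a1 was at 4.26, 2.68 and 2.07 CPM in the KO libraries, against 33.7, 28.9 and 25.6 CPM in the WT libraries and fell (log2 fold change -3.34, SE 0.25, adjusted p = 6.6e-06). Col20a1 was at 11.5, 8.96 and 12.9 CPM in the KO libraries, against 4.94, 6.29 and 7.35 CPM in the WT libraries and rose (log2 fold change 0.85, SE 0.19, adjusted p = 0.00462). Col12a1 was at 106, 102 and 44.6 CPM in the KO libraries, against 106, 122 and 112 CPM in the WT libraries and did not pass (log2 fold change -0.53, 95% interval -1.20 to 0.14, adjusted p = 0.139). KO replicate 1 lay level with the lowest WT library, KO replicate 2 just under it and KO replicate 3 far below. Col9a3 was at 1.06, 1.03 and 1.94 CPM in the KO libraries, against 1.45, 2.3 and 2.15 CPM in the WT libraries and did not pass (log2 fold change -0.58, 95% interval -1.29 to 0.13, adjusted p = 0.127), though it did without KO replicate 3 (log2 fold change -0.87, adjusted p = 0.0248, with 0.0248 to 0.35 over 13 alternatives). Its exons overlap Tcfl5 on the opposite strand by 234 bases.

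The remaining collagens went in opposite directions. Col7a1, which encodes the anchoring fibril collagen that ties epithelium to the stroma beneath it, was at 12, 11.4 and 10.8 CPM in the KO libraries, against 3.63, 3.6 and 4.44 CPM in the WT libraries and rose in every KO library (log2 fold change 1.55, SE 0.14, adjusted p = 2.3e-05). Col23a1, a transmembrane collagen, was at 0.418, 0.342 and 0.239 CPM in the KO libraries, against 1.41, 1.76 and 1.47 CPM in the WT libraries and fell (log2 fold change -2.15, SE 0.28, adjusted p = 0.00019).

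**Figure D3:**
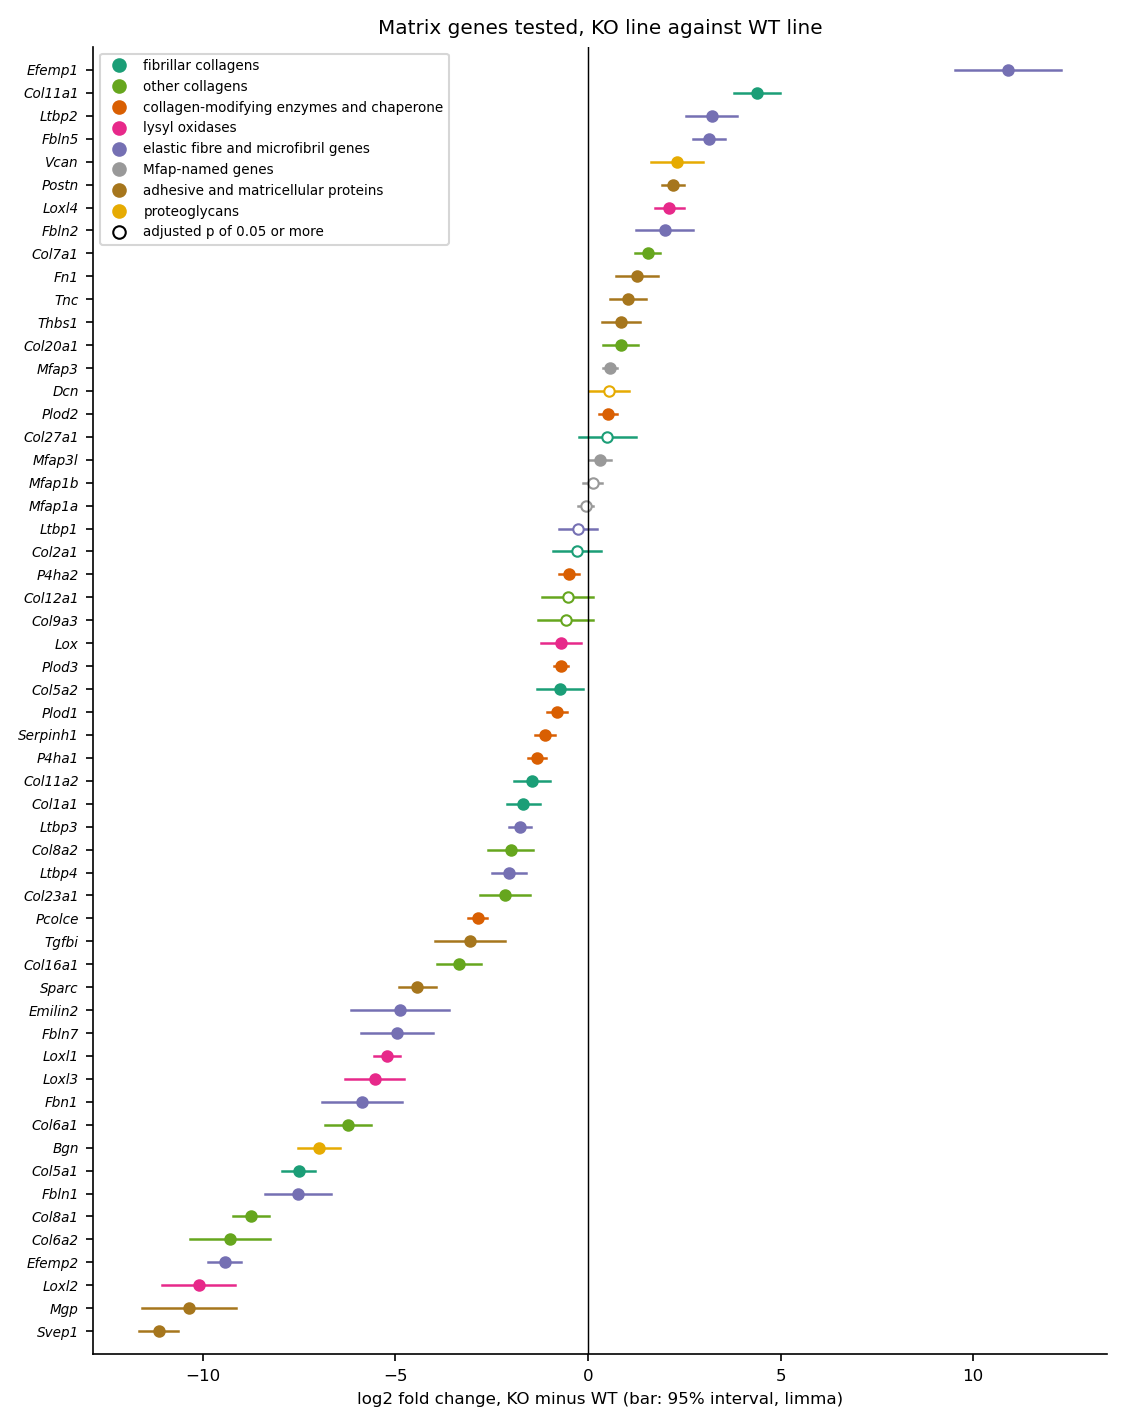
Log2 fold change of each of the 56 matrix genes tested, KO minus WT, from limma, with its 95% interval, coloured by role, and open circles did not pass. Efemp1 at 10.91 stands alone on the right, while 16 genes lie at -4 or below.

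All 7 genes of collagen modification and folding in the set passed, 1 higher and 6 lower, where 68.1% of all genes tested passed. Their shifts were smaller than those of many chains. Serpinh1, which encodes HSP47, the chaperone dedicated to collagen, was at 566, 443 and 495 CPM in the KO libraries, against 1026, 1122 and 1090.1 CPM in the WT libraries (log2 fold change -1.11, SE 0.11, adjusted p = 3.7e-05). P4ha1, the catalytic subunit of the main prolyl 4-hydroxylase that gives collagen its heat stability, was at 163, 180.4 and 184 CPM in the KO libraries, against 495, 418 and 404 CPM in the WT libraries (log2 fold change -1.32, SE 0.10, adjusted p = 6.9e-06). P4ha2, the subunit of another form of that enzyme, was at 110.0, 117 and 92.1 CPM in the KO libraries, against 159, 156 and 131 CPM in the WT libraries (log2 fold change -0.49, SE 0.11, adjusted p = 0.00488). For each of them every KO library lay below every WT library.

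The lysyl hydroxylases split. Plod2, which hydroxylates lysines of the telopeptides and so directs the type of crosslink, was at 286, 260.4 and 230.2 CPM in the KO libraries, against 197, 172 and 170.4 CPM in the WT libraries and was the only gene of this group to rise (log2 fold change 0.52, SE 0.10, adjusted p = 0.0019). Plod1, which acts on the helical part, was at 39.1 ± 2.4 CPM over the KO libraries, against 68.5 ± 9.95 CPM over the WT libraries (log2 fold change -0.80, SE 0.11, adjusted p = 0.00031). Plod3, which also adds sugars to hydroxylysine, was at 102 ± 5.9 CPM over the KO libraries, against 167 ± 11 CPM over the WT libraries (log2 fold change -0.71, SE 0.08, adjusted p = 8.2e-05). The groups did not overlap in any of these genes, where they did not in 73.5% of all genes tested. Pcolce, the enhancer of the proteinase that removes the C-terminal propeptide, fell furthest in this group, at 82.1, 75.5 and 86.7 CPM in the KO libraries, against 673, 588 and 518 CPM in the WT libraries, or 13.7% of the WT level (log2 fold change -2.86, SE 0.11, adjusted p = 1.2e-07). Its exons overlap those of Fbxo24 on the same strand by 112 bases.

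Of the 5 lysyl oxidases, the copper enzymes that start collagen and elastin crosslinks, 4 fell and 1 rose. All 5 thus passed, where 68.1% of all genes tested did, but Loxl2 and Loxl3 came over the filter in WT alone and had to differ. The founding enzyme Lox was at 59.6, 28.3 and 40.8 CPM in the KO libraries, against 64.5, 69.7 and 64.7 CPM in the WT libraries (log2 fold change -0.69, SE 0.23, adjusted p = 0.0248). The call was lost when KO replicate 3 (adjusted p = 0.0697) or WT replicate 2 (adjusted p = 0.0651) was left out, with 0.00161 to 0.0697 over 14 alternatives. Loxl1, which is needed for elastic fibre upkeep in adult mice, was at 12.7, 10.02 and 8.81 CPM in the KO libraries, against 338, 409 and 422 CPM in the WT libraries, or 2.7% of the WT level (log2 fold change -5.22, SE 0.14, adjusted p = 2.7e-08). Loxl2, which crosslinks collagen IV as well as fibrous collagens, had 4 reads in all KO libraries and 6974 in the WT libraries. Its levels were 0.0492, 0 and 0.0531 CPM in the KO libraries, against 67.9, 58.7 and 51.1 CPM in the WT libraries (log2 fold change -10.10, SE 0.41, adjusted p = 1.9e-07).

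Loxl3, needed for palate and spine development in mice, was at 0.271, 0.77 and 0.557 CPM in the KO libraries, against 27.2, 22.7 and 22.3 CPM in the WT libraries (log2 fold change -5.54, SE 0.33, adjusted p = 1.7e-06). Loxl4 was the exception, at 109.8, 106 and 78.9 CPM in the KO libraries, against 19.2, 21.3 and 27.6 CPM in the WT libraries (log2 fold change 2.12, SE 0.17, adjusted p = 8.8e-06). Every KO library exceeded every WT library for Loxl4, and the reverse held for the other lysyl oxidases. The lines did not overlap in 73.5% of all genes tested. The order of levels per kilobase differed between the lines. In the KO line Loxl4 led with 23.4 CPM per kilobase, ahead of Lox with 8.98, Loxl1 with 3.19, Loxl3 with 0.116 and Loxl2 with 0.00631. In the WT line Loxl1 led with 118, followed by Lox with 13.9, Loxl2 with 11, Loxl4 with 5.39 and Loxl3 with 5.23, of which the last pair did not differ beyond their spread.

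Of 12 genes of elastic fibres and microfibrils, 4 rose and 7 fell (91.7% passed, against 68.1% of all genes tested). All 11 changed at least 2-fold, where 27.9% of all genes tested did. Efemp1 and Ltbp2 came over the filter in KO alone, and Fbln1, Efemp2 and Emilin2 in WT alone, and had to differ. The related Efemp1 and Efemp2 had opposite patterns. Efemp1, which encodes fibulin-3, a secreted glycoprotein found in elastic tissue and in Bruch's membrane of the eye, was at 96.2, 83.1 and 85.8 CPM in the KO libraries, against 0.117, 0 and 0 CPM in the WT libraries (log2 fold change 10.91, SE 0.60, adjusted p = 1e-06). All 5 of its WT reads were in WT replicate 1, without which the log2 fold change was 11.72 and set by the prior. Efemp2 encodes fibulin-4, without which elastic fibres do not form in mice. It was at 0.517, 0.314 and 0.345 CPM in the KO libraries, against 306, 281 and 259.7 CPM in the WT libraries (log2 fold change -9.43, SE 0.18, adjusted p = 5.3e-09), so the KO line held 0.139% of the WT level. Efemp1 lies on chromosome 11 at 28853204 to 28926743 and Efemp2 on chromosome 19 at 5473954 to 5482517, both on the plus strand (GRCm38). Exons of Efemp2 overlap those of Mus81 on the opposite strand by 173 bases.

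The DNA before both genes is shown because their levels were so unlike, chr11:28852955-28853203 for Efemp1 and chr19:5473696-5473945 for the most upstream of 3 start sites in the table for Efemp2, both plus strand, build GRCm38.p6, with capitals as above.
Efemp1: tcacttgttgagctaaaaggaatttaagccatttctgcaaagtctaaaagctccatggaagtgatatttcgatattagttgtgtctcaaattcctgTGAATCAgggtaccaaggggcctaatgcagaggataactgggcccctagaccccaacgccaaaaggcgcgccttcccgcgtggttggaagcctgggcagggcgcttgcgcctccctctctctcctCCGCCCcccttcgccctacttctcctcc
Efemp2: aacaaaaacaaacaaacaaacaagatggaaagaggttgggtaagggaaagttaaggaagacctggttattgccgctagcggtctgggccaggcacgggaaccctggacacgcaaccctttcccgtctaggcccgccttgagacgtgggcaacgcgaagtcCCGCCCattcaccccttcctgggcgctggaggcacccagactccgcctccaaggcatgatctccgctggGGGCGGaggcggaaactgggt
The Efemp1 window held 1 match to TGANTCA and 1 to GGGCGG, with 10 CpG dinucleotides and 53.4% G and C. The Efemp2 window held 2 matches to GGGCGG, with 15 CpG dinucleotides and 59.2% G and C.

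The fibulins also parted. Fbln5, which tethers elastin and lysyl oxidases to microfibrils, was at 147, 110.1 and 85.3 CPM in the KO libraries, against 12.2, 11.9 and 14.1 CPM in the WT libraries (log2 fold change 3.13, SE 0.18, adjusted p = 1.4e-06). Fbln2, which binds fibronectin and fibrillin, was at 1690.5, 1232 and 1055 CPM in the KO libraries, against 506, 193 and 359.5 CPM in the WT libraries (log2 fold change 1.99, SE 0.33, adjusted p = 0.0007). It was the elastic fibre gene with the most reads per kilobase in the KO line, with 208 CPM per kilobase there, against 55.4 in the WT line. The WT libraries of Fbln2 varied widely, and all KO libraries were higher than the highest of them. Fbln1, a fibulin of basement membranes and elastic fibres, was at 0.0984, 0.114 and 0.0265 CPM in the KO libraries, against 15.9, 18.6 and 19.3 CPM in the WT libraries, with 9 reads in the KO group (log2 fold change -7.53, SE 0.37, adjusted p = 5.4e-07). Fbln7, a small adhesive fibulin, was at 1.21, 1.71 and 0.504 CPM in the KO libraries, against 28.5, 44.3 and 26.5 CPM in the WT libraries (log2 fold change -4.95, SE 0.41, adjusted p = 1.2e-05).

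Fibrillin-1, the backbone of microfibrils and the gene mutated in Marfan syndrome, fell. Fbn1 was at 1.3, 1.37 and 0.371 CPM in the KO libraries, against 39.1, 61.2 and 59.8 CPM in the WT libraries (log2 fold change -5.86, SE 0.45, adjusted p = 8e-06). Without KO replicate 3 its log2 fold change was -5.26. Exons of Fbn1 overlap those of Gm9913 on the opposite strand by 2442 bases, and whether the counting used the strand that the library kit marks is not stated in the labels used here. Emilin2, an elastin-associated glycoprotein, had 6 KO reads and was at 0.0738, 0.0856 and 0 CPM in the KO libraries, against 1.85, 2.12 and 1.81 CPM in the WT libraries (log2 fold change -4.88, SE 0.55, adjusted p = 7.7e-05), or -4.21 without KO replicate 3.

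The latent TGF-beta binding proteins, which hold latent growth factor on microfibrils, went 3 ways. Ltbp2, which binds fibrillin but not latent TGF-beta, was at 7.04, 6.36 and 3.42 CPM in the KO libraries, against 0.539, 0.595 and 0.537 CPM in the WT libraries and rose (log2 fold change 3.21, SE 0.29, adjusted p = 2e-05). Ltbp3 was at 255, 296 and 257 CPM in the KO libraries, against 1050.5, 938 and 775 CPM in the WT libraries and fell (log2 fold change -1.77, SE 0.13, adjusted p = 4.8e-06). Ltbp4, which works with fibulin-5 in elastic fibre assembly, was at 5.41, 6.48 and 5.7 CPM in the KO libraries, against 22.4, 32.4 and 19.4 CPM in the WT libraries and fell (log2 fold change -2.04, SE 0.19, adjusted p = 2.5e-05). Ltbp1 was at 70.9, 67.3 and 37.8 CPM in the KO libraries, against 66.6, 74.1 and 62.6 CPM in the WT libraries and did not pass (log2 fold change -0.26, 95% interval -0.76 to 0.24, adjusted p = 0.318). The KO libraries 1 and 2 of Ltbp1 lay within the WT range and replicate 3 lay below it, and without replicate 3 the log2 fold change was 0.031 (adjusted p = 0.782). Efemp2 and Ltbp3 are 258 kb apart on chromosome 19, and both fell, as did Plod3 and Pcolce, 608.5 kb apart. Of all matrix genes tested 57.1% fell, and a part of gene position was not tested. In the pairs Col9a3 and Col20a1 (364.3 kb apart) and Col27a1 and Tnc (624.8 kb apart), the first gene did not pass and the second rose. Exons of Ltbp2 overlap an antisense gene, D030025P21Rik, by 764 bases.

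Of the 4 Mfap-named genes 2 rose and 2 did not pass (50% passed, against 68.1% of all genes tested), and none changed 2-fold, where 27.9% of all genes tested did. Mfap1a and Mfap1b encode a splicing factor and not a matrix protein, and are near-copies 17.8 kb apart on chromosome 2, so reads could be split between them with uncertainty. Mfap1a was at 26.7 ± 0.95 CPM over the KO libraries, against 27.9 ± 1.2 CPM over the WT libraries and did not pass (log2 fold change -0.06, 95% interval -0.26 to 0.14, adjusted p = 0.565). Mfap1b was at 11.1 ± 0.23 CPM over the KO libraries, against 10.2 ± 0.54 CPM over the WT libraries and did not pass (log2 fold change 0.12, 95% interval -0.13 to 0.38, adjusted p = 0.342). Mfap3, a membrane glycoprotein, was at 77.5, 76.1 and 81.1 CPM in the KO libraries, against 48.2, 54.4 and 55.6 CPM in the WT libraries and rose (log2 fold change 0.57, SE 0.08, adjusted p = 0.00032). Its relative Mfap3l was at 329.9, 357 and 298 CPM in the KO libraries, against 314, 236 and 245 CPM in the WT libraries, with overlapping groups, and just passed (log2 fold change 0.32, SE 0.12, adjusted p = 0.0483). It failed in 5 of 14 alternatives, namely without the intensity trend and without KO replicate 1, KO replicate 2, WT replicate 2 or WT replicate 3 (adjusted p = 0.0807 to 0.169, with 0.00526 to 0.169 over the alternatives). Mfap2, Mfap4 and Mfap5, which encode microfibril glycoproteins, are not analysed here.

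Of 8 adhesive and matricellular genes, 4 rose and 4 fell, where 68.1% of all genes tested passed. The groups did not overlap in any of the 8, where they did not in 73.5% of all genes tested. Svep1, Mgp and Tgfbi came over the filter in WT alone and had to differ. Fn1, fibronectin, the glycoprotein on which cells assemble the first matrix, was at 13262, 10915 and 7728 CPM in the KO libraries, against 4258, 4298 and 4326 CPM in the WT libraries (log2 fold change 1.27, SE 0.23, adjusted p = 0.00134), and with quantile normalization the log2 fold change was 0.63 (adjusted p = 0.00021 to 0.00644 over 14 alternatives). Its WT libraries were close to each other, while the KO libraries spread widely, with replicate 1 highest and replicate 3 lowest. Thbs1, thrombospondin 1, an adhesive protein that activates latent TGF-beta, was at 9254, 9880.5 and 6521 CPM in the KO libraries, against 4284, 4523 and 5162 CPM in the WT libraries (log2 fold change 0.86, SE 0.22, adjusted p = 0.00764), but with quantile normalization the sign turned (log2 fold change -0.16, adjusted p = 0.375, with 0.00138 to 0.375 over 14 alternatives). Under the other 13 alternatives Thbs1 was higher in the KO line.

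Tnc, tenascin C, an anti-adhesive protein of developing and healing tissue, was at 4178, 3917 and 2611 CPM in the KO libraries, against 1713, 1904 and 1512 CPM in the WT libraries (log2 fold change 1.04, SE 0.20, adjusted p = 0.00181). Postn, periostin, which aids collagen crosslinking through BMP1 and lysyl oxidase, was at 127, 127 and 95.5 CPM in the KO libraries, against 22.9, 27.2 and 25.3 CPM in the WT libraries (log2 fold change 2.20, SE 0.13, adjusted p = 1.4e-06). KO replicate 3 was the lowest library of its line for Fn1, Thbs1, Tnc and Postn alike, and still above every WT library. Per kilobase, Thbs1 led both lines, with 1408 CPM per kilobase in KO and 767 in WT. In the KO line it was followed by Fn1 with 910.1, Tnc with 459, Fbln2 with 208, Serpinh1 with 205 and Plod2 with 48, level with Mfap3l. In the WT line it was followed by Sparc with 653, Serpinh1 with 442, Fn1 with 368, Tnc with 220.0 and Pcolce with 155.

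Sparc, osteonectin, a collagen-binding protein that modulates cell adhesion, was at 159.9, 110.3 and 85.7 CPM in the KO libraries, against 2755, 2428 and 2241 CPM in the WT libraries, or 4.79% of the WT level (log2 fold change -4.43, SE 0.21, adjusted p = 3.9e-07). Svep1, a large adhesive protein that binds integrin α9β1, came over the filter in WT alone. It was at 0.246, 0.171 and 0.239 CPM in the KO libraries, against 393, 663 and 620.2 CPM in the WT libraries and fell furthest of all 56 genes (log2 fold change -11.13, SE 0.22, adjusted p = 5.7e-09). Its exons overlap a noncoding gene on the opposite strand, Gm26889, by 2244 bases. Mgp, matrix Gla protein, which inhibits mineralisation, had 5 KO reads and was at 0.0246, 0 and 0.106 CPM in the KO libraries, against 93, 79 and 53.1 CPM in the WT libraries (log2 fold change -10.35, SE 0.53, adjusted p = 6.7e-07). Without KO replicate 3 the mean KO level of Mgp was 0.0123 CPM, against 0.0436 CPM with it, and the log2 fold change was -10.97. Tgfbi, a TGF-beta-induced adhesive protein, was low in both lines at 0.492, 0.257 and 0.159 CPM in the KO libraries, against 2.88, 2.74 and 1.92 CPM in the WT libraries (log2 fold change -3.06, SE 0.39, adjusted p = 0.00017).

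The 3 proteoglycan genes showed 3 patterns. Bgn, biglycan, a small leucine-rich proteoglycan of fibrils, was at 0.197, 0.143 and 0.106 CPM in the KO libraries, against 23.1, 22.8 and 19.2 CPM in the WT libraries and fell (log2 fold change -6.99, SE 0.24, adjusted p = 7.2e-08). Its relative decorin, Dcn, was at 1.21, 1.57 and 1.43 CPM in the KO libraries, against 0.96, 1.06 and 0.82 CPM in the WT libraries. All its KO libraries were above all WT libraries, but it did not pass (log2 fold change 0.55, 95% interval 0.03 to 1.07, adjusted p = 0.0573). It passed with log2(CPM + 1), with quantile normalization and without the intensity trend (adjusted p = 0.0118 to 0.0448, with 0.0118 to 0.158 over 13 alternatives). Vcan, versican, a large proteoglycan of provisional matrix, was at 11.2, 7.7 and 4.72 CPM in the KO libraries, against 1.5, 1.45 and 1.47 CPM in the WT libraries and rose (log2 fold change 2.31, SE 0.29, adjusted p = 0.00015).

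Within the KO line the matrix genes differed between libraries. Of 44 matrix genes with at least 1 CPM on average in that line, replicate 3 was the lowest library for 27 (61.4%), where it was lowest for 38.4% of all genes at that level. Replicate 1 was the highest for 24 of them (54.5%), against 27.9% of all genes. The median log2 ratio of a library to the mean of the other 2 was 0.19 for KO replicate 1, -0.02 for replicate 2 and -0.27 for replicate 3, and for all genes it was between -0.01 and 0. In the WT line, with 53 such matrix genes, the medians were -0.04, 0.04 and -0.09. The labels give no batch that separates KO replicate 3 from the others. Without it, 16 matrix genes rose and 31 fell.

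**Figure D4:**
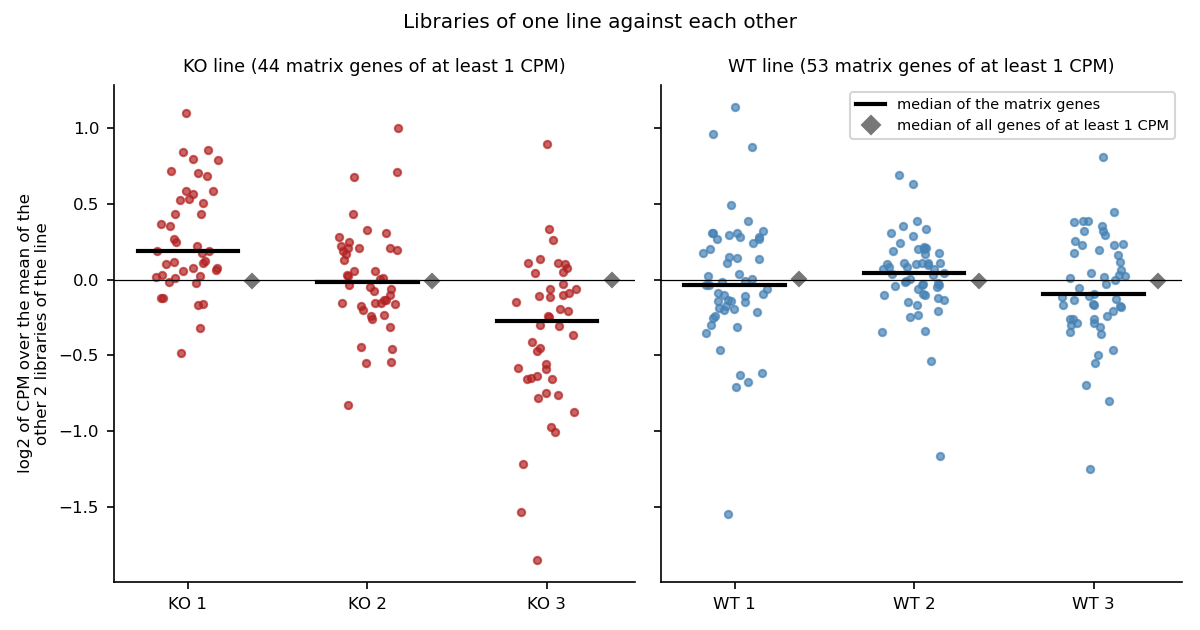
Log2 of the CPM of each matrix gene in 1 library over the mean of the other 2 libraries of its line (points), for the KO line on the left and the WT line on the right, with genes of at least 1 CPM on average. The black median of KO replicate 3 is at -0.27 and that of KO replicate 1 at 0.19, while the grey medians of all genes lie near 0.

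Genes that serve the same pathway but lie outside the symbol rule were taken from 6 other lists. Of the genes tested in these lists, those that came over the filter on low values in 1 line only had to differ, so each list's count and median are descriptions, to be read beside the 68.1% of all genes that passed. In collagen folding and export, 20 of 21 genes were listed and tested, with 6 higher and 9 lower in KO (75% passed; median log2 fold change -0.10), a share near that of all genes. Of the higher ones Sec23a lost its call in 5 of 14 alternatives (adjusted p = 0.0632 to 0.126 there). Fkbp10 and Creb3l1 came over the filter in WT alone. Fkbp10, a collagen chaperone, was at 0.446 ± 0.15 CPM over the KO libraries, against 98.3 ± 5.0 CPM over the WT libraries (log2 fold change -7.75, SE 0.23, adjusted p = 3.6e-08). Creb3l1, a transcription factor that drives collagen I secretion in bone, was at 0.20 ± 0.061 CPM over the KO libraries, against 29.9 ± 3.3 CPM over the WT libraries (log2 fold change -7.07, SE 0.23, adjusted p = 5.4e-08). The prolyl 3-hydroxylase family genes P3h1, P3h2, P3h3 and P3h4 and their partner Crtap, chosen after their values were seen, all fell, with log2 fold changes from -2.81 for P3h4 to -0.87 for P3h3. The COPII GTPase gene Sar1b was at 79.9 ± 10.4 CPM over the KO libraries, against 36.9 ± 2.4 CPM over the WT libraries (log2 fold change 1.11, SE 0.11, adjusted p = 3.1e-05). The cargo receptor gene Mia2 was at 183 ± 6.8 CPM over the KO libraries, against 115 ± 6.5 CPM over the WT libraries (log2 fold change 0.68, SE 0.07, adjusted p = 6.8e-05). P4hb, the shared subunit of the prolyl 4-hydroxylases, also chosen after its values were seen, was at 808 ± 59 CPM over the KO libraries, against 906 ± 133 CPM over the WT libraries and did not pass (log2 fold change -0.16, 95% interval -0.44 to 0.13, adjusted p = 0.291).

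Of 9 procollagen processing proteases 5 were listed and tested, 1 higher and 3 lower (median -3.16), and all 3 lower ones came over the filter in WT alone. Bmp1, the C-proteinase that also activates lysyl oxidase, was at 231 ± 34 CPM over the KO libraries, against 132 ± 14 CPM over the WT libraries (log2 fold change 0.80, SE 0.12, adjusted p = 0.00044). The N-proteinase gene Adamts14 was at 0.0436 ± 0.013 CPM over the KO libraries, against 7.21 ± 1.3 CPM over the WT libraries (log2 fold change -6.70, SE 0.28, adjusted p = 2.2e-07). Adamts2, another N-proteinase gene, was at 0.301 ± 0.17 CPM over the KO libraries, against 12.8 ± 0.77 CPM over the WT libraries (log2 fold change -5.47, SE 0.43, adjusted p = 8.7e-06). The KO libraries did not overlap the WT libraries for any of these proteases, where they did not in 73.5% of all genes tested.

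Of 14 small leucine-rich proteoglycans outside the set 4 were listed and tested, and all 4 fell (median -5.51), of which Fmod and Prelp came over the filter in WT alone. Fmod, fibromodulin, had 3 KO reads and was at 0.0272 ± 0.027 CPM over the KO libraries, against 11.6 ± 4.0 CPM over the WT libraries. Prelp, which anchors collagen to basement membranes, was at 0.0524 ± 0.026 CPM over the KO libraries, against 8.32 ± 2.7 CPM over the WT libraries (log2 fold change -6.73, SE 0.35, adjusted p = 6.9e-07).

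Of the 13 symbols in the list of microfibril-associated genes 8 were tested. Of these 2 rose and 6 fell (median -1.20), and Adamts17 came over the filter in KO alone and Adamtsl3 in WT alone. Adamts17 was at 2.15 ± 0.58 CPM over the KO libraries, against 0.239 ± 0.044 CPM over the WT libraries (log2 fold change 3.01, SE 0.30, adjusted p = 3.6e-05). Thsd4, which promotes fibrillin assembly, was at 5.44 ± 2.0 CPM over the KO libraries, against 2.25 ± 0.47 CPM over the WT libraries (log2 fold change 1.23, SE 0.28, adjusted p = 0.00461). Both rose in every KO library over every WT library. Adamtsl3 was at 0.0341 ± 0.037 CPM over the KO libraries, against 2.71 ± 0.33 CPM over the WT libraries (log2 fold change -5.70, SE 0.48, adjusted p = 1.4e-05). Adamts10, a protease linked to Weill-Marchesani syndrome, was at 5.51 ± 0.79 CPM over the KO libraries, against 25.8 ± 5.3 CPM over the WT libraries (log2 fold change -2.21, SE 0.18, adjusted p = 1.1e-05). Their KO libraries all lay below their WT libraries.

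Of 31 other matricellular genes 10 were listed and tested, 2 higher and 7 lower (median -1.71). Edil3 came over the filter in KO alone, and Vwa1 and Matn2 in WT alone. Edil3, an integrin ligand, was at 2.16 ± 0.55 CPM over the KO libraries, against 0.0337 ± 0.011 CPM over the WT libraries (log2 fold change 5.18, SE 0.34, adjusted p = 2.8e-06). Hapln4, which links hyaluronan to proteoglycans, was at 3.33 ± 0.56 CPM over the KO libraries, against 0.818 ± 0.25 CPM over the WT libraries (log2 fold change 2.01, SE 0.26, adjusted p = 0.00017). Their KO libraries all lay above their WT libraries. Spon2 was at 2.75 ± 1.2 CPM over the KO libraries, against 39.1 ± 1.3 CPM over the WT libraries (log2 fold change -3.92, SE 0.30, adjusted p = 7.1e-06). Vwa1, of the pericellular matrix, was at 0.736 ± 0.12 CPM over the KO libraries, against 7.48 ± 2.0 CPM over the WT libraries (log2 fold change -3.28, SE 0.24, adjusted p = 6e-06).

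Of 9 receptors of collagen and fibronectin 8 were listed and tested, 2 higher and 4 lower (75% passed, near the share of all genes; median -0.43 and mean 0.10, which differ in sign). Itga2 came over the filter in KO alone and Mrc2 in WT alone. Of the lower ones Ddr2 lost its call in 5 of 14 alternatives (adjusted p = 0.0535 to 0.0882 there). Itga2 of the collagen receptor α2β1 was at 26.4 ± 3.8 CPM over the KO libraries, against 0.197 ± 0.015 CPM over the WT libraries (log2 fold change 6.88, SE 0.19, adjusted p = 2.5e-08). Itga1 of the collagen receptor α1β1 was at 53.3 ± 5.5 CPM over the KO libraries, against 244 ± 28 CPM over the WT libraries (log2 fold change -2.19, SE 0.11, adjusted p = 5.5e-07). Their common partner Itgb1 was at 4337 ± 685 CPM over the KO libraries, against 2216 ± 105 CPM over the WT libraries (log2 fold change 0.96, SE 0.16, adjusted p = 0.00074). Mrc2, the endocytic receptor for collagen, was at 0.159 ± 0.069 CPM over the KO libraries, against 1.41 ± 0.44 CPM over the WT libraries (log2 fold change -3.00, SE 0.40, adjusted p = 0.0002).

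**Figure D5:**
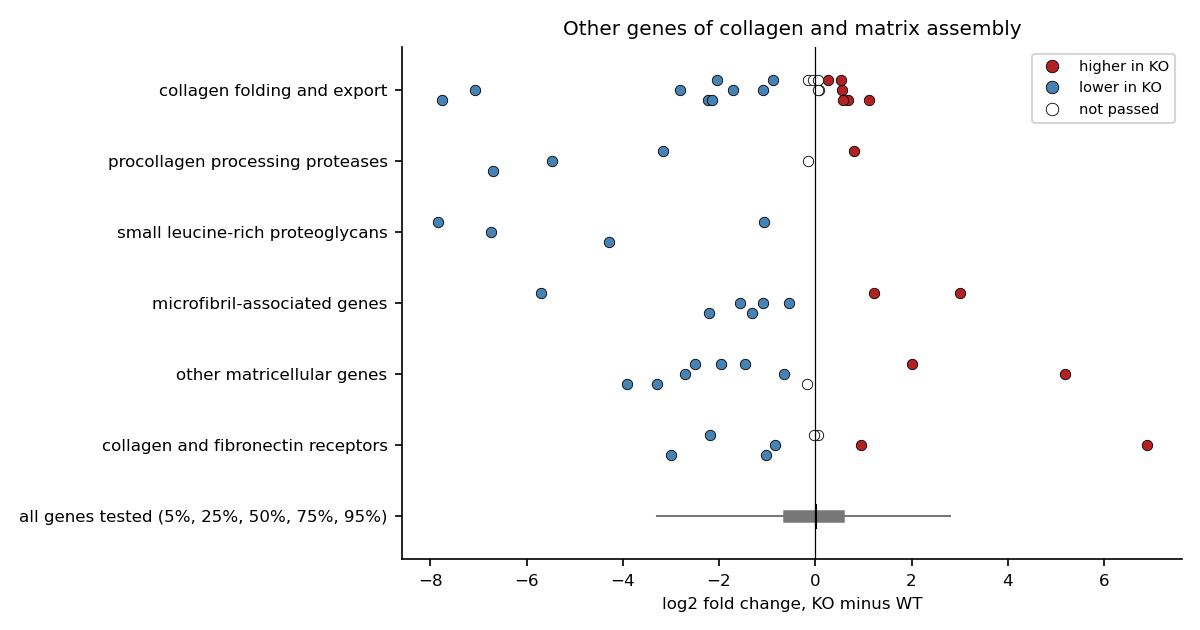
Log2 fold changes, KO minus WT, of the tested genes of 6 other lists of matrix assembly (1 point per gene, red higher, blue lower, white not passed), above the spread of all genes tested. All 4 small leucine-rich proteoglycans are on the left, at -1.06 or below, and the collagen folding and export genes lie on both sides of 0.

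Promoter sequence was available for 43 of the 57 genes (250 bases before the RefSeq start, all listed start sites). The Sp1 motif GGGCGG was in the windows of 34 of them (79.1%), where 65.1% of 10027 listed genes with a window had it. It was in 11 of 13 genes that rose and 19 of 25 that fell. CAGGTG was in 5 of the 43 (11.6%, against 18.4% of listed genes), 1 that rose and 4 that fell. CCAAT was in 10 (23.3%, against 41.0%), and TATAAA in 6 (14%, against 7.93%). TGANTCA was in 2 and GGAATG in 5, or 4.65% and 11.6%, against 5.61% and 12.9% of listed genes. Genes with several start sites were counted once if any window had the motif, and these shares are descriptions with no test.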

How the data were processed

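Libraries were made with a stranded mRNA kit, per the labels' protocols. Values were deposited by the authors as log2 CPM with a prior count, per gene symbol. Per the submitters' processing notes, Trimmomatic 0.39, STAR 2.7.3a, featureCounts (Subread 1.6.4), edgeR and build GRCm38 were used; the strand setting, annotation and filters are not stated there. The linear value less the lowest value of the table gave CPM, and every value was a whole number of reads within 0.001. Genes over 0 log2 CPM in at least 3 of 6 libraries were tested with limma 3.58.1 (R 4.3.3), KO minus WT, with an intensity trend and Benjamini-Hochberg adjustment over all of them. The script was tested on simulated data. Gene positions came from GENCODE M21 and promoter windows from RefSeq (GRCm38.p6). Exon bases were left out of the printed windows only, and the motif shares used all 250 bases. CPM per kilobase used merged exons. The Clopper-Pearson interval and the floor of reads cover counting error only. Intervals of log2 fold changes are from limma and rest on the spread between libraries. Alternatives changed the filter, the pseudocount, the scaling, the trend, the model (limma voom, with scaling factors recovered from the table in place of TMM), the replicate block and the libraries used. The genes and lists were chosen with earlier results of these data known. Full values were given for the 6 highest and 10 lowest non-overlapping log2 fold changes past the test (at least 5 CPM in the higher line), for the 6 genes with the most reads per kilobase in each line, and for genes that did not pass; each other list gave up to 2 genes at either end. Values of the remaining genes of the set were given as well.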

Additional observations from a re-analysis of the deposited data

How the results depend on the processing

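Over the alternatives that could be run, 14 for 49 genes and 13 for 8 that the stricter filter left out, 50 of 57 genes (the 56 tested and Myo1e) kept their direction and their side of the threshold, and 7 did not: Col5a2, Col9a3, Dcn, Lox, Ltbp1, Mfap3l and Thbs1. Thbs1 turned to -0.16 with quantile normalization, and Ltbp1 ranged from -0.42 to 0.031 with single libraries left out and passed in no alternative. The cause was not tested. With the stricter filter, 16 matrix genes were higher and 28 lower, and 1 gene each was higher in the lists of microfibril-associated and other matricellular genes, against 2 each, as fewer genes were tested. Calls over all genes numbered 7573 to 8743. Quantile normalization gave 4646 higher and 3979 lower, and moved the median of all genes to 0.06. With the replicate number as a block 8395 genes passed, 16 matrix genes higher and 32 lower. Same-numbered libraries had correlations of deviations of 0.101, 0.0811 and -0.0951, and not every library correlated best with its own number. With so few libraries per line, these correlations cannot decide whether same-numbered libraries share more than a number. Without the filter Col6a6 was tested and fell (limma, log2 fold change -5.24, adjusted p = 2.87e-05). Depth limits genes with few reads in 1 line, whose log2 fold changes depend on the prior.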
